A study of Mus musculus with 6 samples.

Results

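The genes of transforming growth factor beta (TGF-beta) signalling were examined in frontal cortex of mice that overproduce the inflammatory cytokine IL6 in the brain. The set held 9 genes, selected by symbol from the 33000 genes of the count table. They were the ligands Tgfb1, Tgfb2 and Tgfb3, the receptors Tgfbr1, Tgfbr2 and Tgfbr3, the signal transducer Smad3 and the inhibitor Smad7. The last was Ltbp1, which binds the latent ligand and anchors it to the matrix. All 9 were in the table and all passed the filter on low counts, so that all were among the 15341 genes tested. TruSeq mRNA libraries came from 3 wild-type (WT) mice and from 3 mice homozygous for the GFAP-IL6 transgene, each labelled with the strain C57BL/6 and 3 months old, with no treatment named for either group. The GFAP-IL6 transgene places Il6 under the promoter of Gfap, a gene of astrocytes, so that expression follows the activity of that promoter. The libraries of each group carry separate numbers, but no source used here says that they are separate litters or preparations, and p-values measure the spread between these samples.

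In this pathway the ligands are secreted in a latent complex, in which a propeptide masks the growth factor and a latent TGF-beta binding protein ties it to the matrix. Once released, for example by integrins, the ligand binds the type II receptor TGFBR2, which then recruits and phosphorylates the type I receptor TGFBR1. The active type I receptor phosphorylates SMAD2 and SMAD3, which enter the nucleus with SMAD4, and SMAD7 is induced as a feedback inhibitor. In the brain the pathway is known for maintaining the identity of microglia and for its part in vessel development.

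Library totals were between 7559524 and 16877001 counts, and all 3 GFAP-IL6 libraries were shallower than all 3 WT libraries. Members had between 35 and 1195 counts in a library, and none was near the limit of detection. The cortical neuron genes Tbr1 and Neurod6 were expressed in both groups, with summed neuronal markers of 7212 to 7626 CPM in WT and 6225 to 7167 CPM in GFAP-IL6 (CPM, counts scaled to library size with TMM factors). As a check of the labels, Il6 was counted 0, 2 and 0 times in the WT libraries and 12, 10 and 24 times in the GFAP-IL6 libraries, and Gfap had a log2 fold change of 2.84 ± 0.20 (SE). WT replicate 3 stood apart in choroid plexus markers, with 608 CPM over 5 genes against 3.57 to 59.03 CPM in the other libraries. WT replicate 2 was highest in striatal markers, with 285 CPM over 6 genes against 131 to 171 CPM in the others. Every member was therefore also fitted without each library in turn. Symbols, lengths and counts are those of the deposited table, and positions are from GENCODE M21 on GRCm38.

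Of the 9 genes, 1 rose and 0 fell at an adjusted p under 0.05 by edgeR's quasi-likelihood test. At an unadjusted p under 0.05 the members numbered 2 higher and 0 lower, and DESeq2 likewise called 1 higher and 0 lower. Over all genes tested, 2.65% rose and 0.209% fell at the adjusted threshold, and 11.1% were higher and 9.37% lower at the unadjusted one. The gene that rose was Tgfbr2, the type II receptor, at a level 2.17-fold that of WT (95% interval 1.89 to 2.49). It was also the member past the thresholds of the study, which add an absolute log2 fold change over 1 and which 1.36% of all genes passed as higher. The second largest change was that of Tgfb1, at 1.52-fold with an interval of 1.12 to 2.06, which did not pass the adjusted threshold. The remaining 7 members had log2 fold changes between -0.08 and 0.20. The median log2 fold change over the 9 was 0.03, against -0.0038 over all genes tested.

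**Figure D1:**
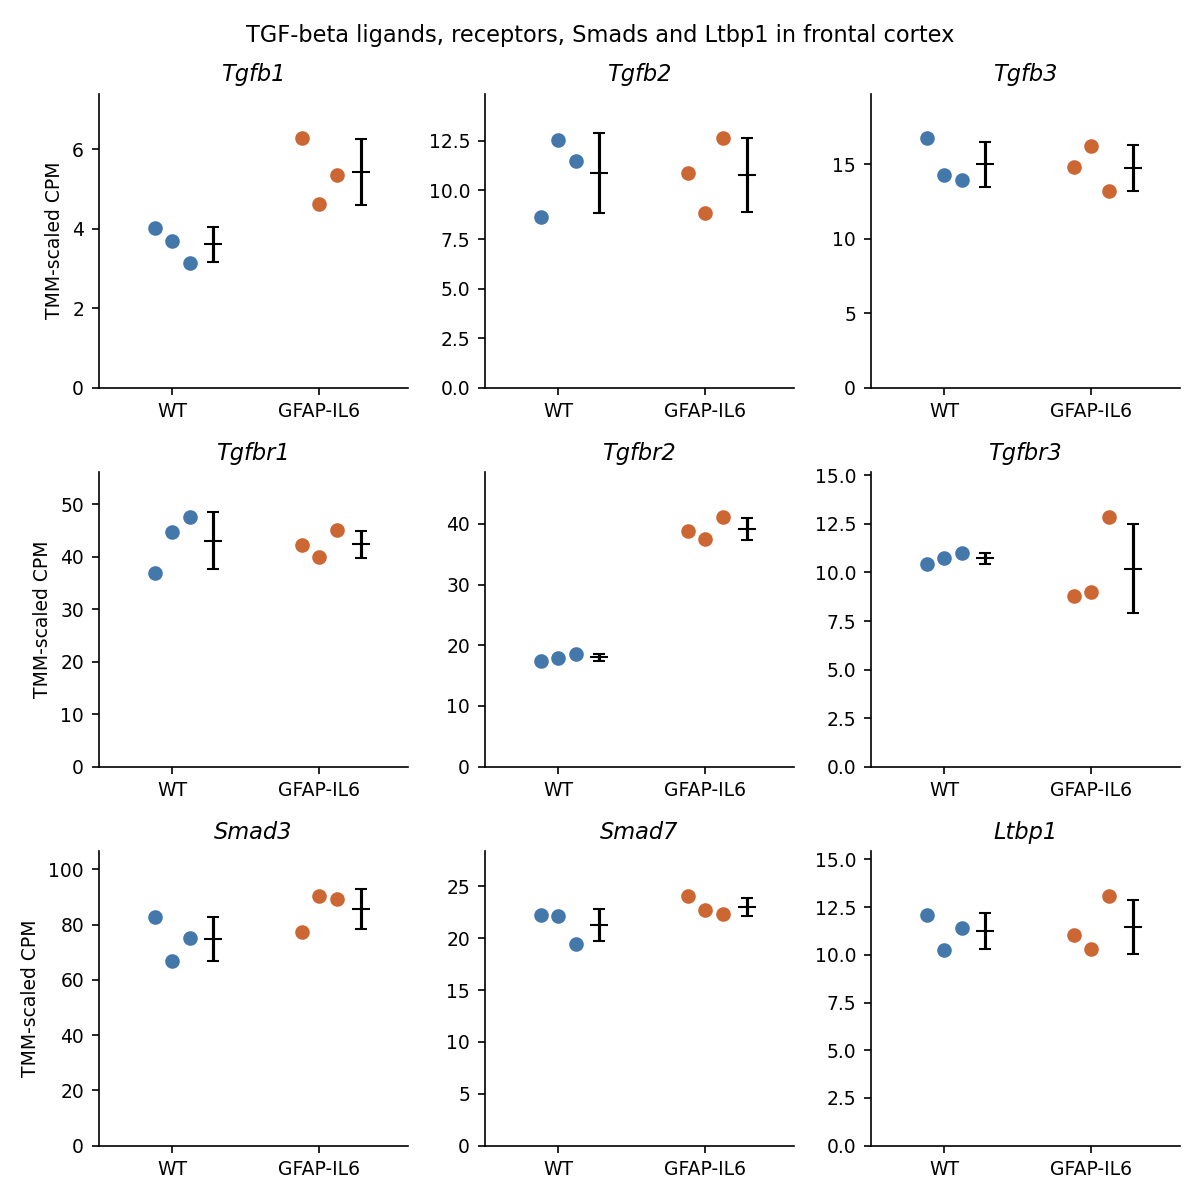
Expression of the 9 genes in each library, as TMM-scaled CPM on linear axes that start at 0; points are single mice and the bars beside them give the mean and SD of 3. Tgfbr2 lies between 17.4 and 18.6 CPM in WT and between 37.5 and 41.1 CPM in GFAP-IL6, while Tgfb2, Tgfb3, Tgfbr1, Tgfbr3, Smad3 and Ltbp1 overlap between groups.

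Of the receptors, Tgfbr2 passed the threshold and Tgfbr1 and Tgfbr3 did not. Tgfbr2 (ENSMUSG00000032440.10, chromosome 9, 116084293 to 116175360, minus strand) had 200, 301 and 297 counts in the 3 WT libraries and 434, 284 and 368 counts in the 3 GFAP-IL6 libraries. These corresponded to 17.4, 18.0 and 18.6 CPM in WT and to 38.9, 37.5 and 41.1 CPM in GFAP-IL6. The lowest GFAP-IL6 library was thus far above the highest WT library, and the spread within each group was small, with means of 18.0 ± 0.615 CPM and 39.2 ± 1.80 CPM (SD, n = 3 each). The log2 fold change of Tgfbr2 was 1.12 ± 0.09 (SE), and edgeR gave an adjusted p of 1.5e-05. Across the 15 alternative fits it stayed between 1.09 and 1.15, and the adjusted p was between 4.6e-15 and 4.8e-04.

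Tgfbr1 (ENSMUSG00000007613.13, chromosome 4, 47353222 to 47414931, plus strand), the kinase that TGFBR2 activates, was at 36.9, 44.7 and 47.5 CPM in WT and 42.1, 39.9 and 45.0 CPM in GFAP-IL6. All GFAP-IL6 values lay within the WT range. The fitted change was -0.03 ± 0.10 on the log2 scale (SE), with a 95% interval of -0.25 to 0.20, and edgeR gave an adjusted p of 0.910. Tgfbr3 (ENSMUSG00000029287.12, chromosome 5, 107106570 to 107289629, minus strand) encodes betaglycan, a co-receptor that presents ligand to TGFBR2. It was at 10.5, 10.7 and 10.99 CPM in WT and at 8.78, 8.98 and 12.8 CPM in GFAP-IL6, so that GFAP-IL6 libraries fell on both sides of the tight WT range. The log2 fold change of Tgfbr3 was -0.08 ± 0.16 (SE), with an interval of -0.42 to 0.27, and 4.54% of its exon bases are shared with another gene on the same strand. The intervals of both genes lie below that of Tgfbr2, which runs from 0.92 to 1.32.

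The 2 signalling receptors were also set against each other within each library, in TPM, which divides by gene length and so allows levels of different genes to be compared. The ratio of Tgfbr2 to Tgfbr1 was 0.632, 0.539 and 0.527 in WT and 1.24, 1.26 and 1.22 in GFAP-IL6. In each WT library Tgfbr2 was therefore the lower of the pair, and in each GFAP-IL6 library the higher. The mean ratio was 0.566 ± 0.058 in WT and 1.24 ± 0.018 in GFAP-IL6 (n = 3 each, with SD). Which receptor is the higher depends on the gene length used. The table lists 4785 bases for Tgfbr2, while GENCODE M21 holds 8187 exon bases, and with M21 lengths the ratio was 0.314 to 0.376 in WT and 0.729 to 0.751 in GFAP-IL6, below 1 in both groups.

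**Figure D2:**
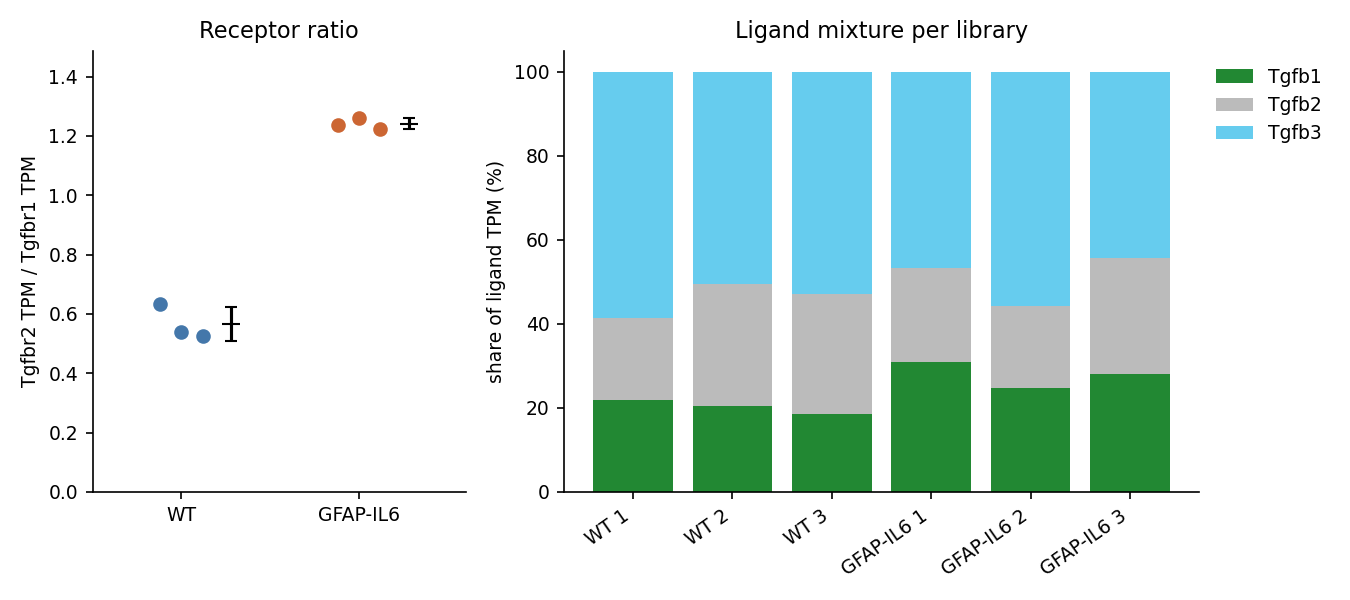
Left, the ratio of Tgfbr2 to Tgfbr1 in TPM for each mouse, with the mean and SD of 3 per group; right, the share of each ligand in the summed TPM of Tgfb1, Tgfb2 and Tgfb3 for each library. The ratio is 0.527 to 0.632 in WT and 1.22 to 1.26 in GFAP-IL6, and the Tgfb1 share is 18.6% to 21.8% in WT and 24.6% to 30.9% in GFAP-IL6.

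The 250 bases before the transcription start are shown for Tgfbr2, the member called, and for Tgfb1, the ligand with the largest change. They were taken from RefSeq on GRCm38.p6, which had a window for 6 of the 9 genes and not for Tgfb3, Tgfbr3 and Smad7. Capitals mark each match on either strand to CAGAC, a core recognised by Smad proteins, or to GGGCGG, the GC box. The Tgfbr2 window is chr9:116175364-116175613 on the minus strand, with 58.4% GC, and the Tgfb1 window is chr7:25686752-25687001 on the plus strand, with 75.2% GC. The median of all 32851 windows was 52.4% GC.
Tgfbr2: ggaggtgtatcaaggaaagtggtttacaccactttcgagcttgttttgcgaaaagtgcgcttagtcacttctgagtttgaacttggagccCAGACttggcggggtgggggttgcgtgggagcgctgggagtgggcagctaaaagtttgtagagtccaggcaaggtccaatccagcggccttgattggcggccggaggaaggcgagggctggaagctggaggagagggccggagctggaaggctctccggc
Tgfb1: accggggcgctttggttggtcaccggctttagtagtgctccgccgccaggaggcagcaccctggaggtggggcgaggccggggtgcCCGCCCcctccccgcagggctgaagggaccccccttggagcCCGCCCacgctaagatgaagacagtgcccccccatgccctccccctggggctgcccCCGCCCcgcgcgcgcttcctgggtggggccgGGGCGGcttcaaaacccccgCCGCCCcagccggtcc

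The Tgfbr2 window held 1 CAGAC, 160 bases before the start, and 0 GC boxes, while that of Tgfb1 held 0 CAGAC and 5 GC boxes. A CAGAC was present in 42.2% of all windows and a GC box in 32.7%. The STAT element TTCNNNGAA, the kind of site bound by the STAT3 factor downstream of IL6, had no match in any of the 8 windows of the 6 genes, and 7.02% of all windows held one. The Smad palindrome GTCTAGAC was also without a match in these windows and occurred in 0.167% of all windows. These are matches of letters in short windows and do not say which factors bind.

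Among the ligands, Tgfb1 had the lowest mean level in WT, in CPM and in TPM, and the largest change. In WT replicate 1, however, Tgfb1 was above Tgfb2 in TPM, at 5.26 against 4.73. Tgfb1 (ENSMUSG00000002603.13, chromosome 7, 25687002 to 25705077, plus strand), the form made by microglia and other immune cells, was counted 46, 62 and 50 times in the WT libraries and 70, 35 and 48 times in the GFAP-IL6 libraries. Scaled to library size these were 4.01, 3.70 and 3.14 CPM in WT and 6.27, 4.62 and 5.36 CPM in GFAP-IL6. Every GFAP-IL6 library was above every WT library, with means of 3.61 ± 0.440 and 5.42 ± 0.828 CPM (SD, n = 3 each). The log2 fold change was 0.60 ± 0.20 (SE), the unadjusted p was 0.0105 and the adjusted p 0.130 by edgeR. It was not past the threshold under any of the 15 alternatives, where the log2 fold change was between 0.48 and 0.70 and the adjusted p between 0.0812 and 0.382.

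Tgfb2 (ENSMUSG00000039239.12, chromosome 1, 186622792 to 186705989, minus strand), a ligand expressed by neurons and astrocytes, was at 8.62, 12.5 and 11.5 CPM in WT and at 10.8, 8.85 and 12.6 CPM in GFAP-IL6. The fitted change was -0.02 ± 0.17 on the log2 scale (SE), with an interval of -0.39 to 0.35. Tgfb3 (ENSMUSG00000021253.6, chromosome 12, 86056745 to 86079041, minus strand), the third ligand, was at 16.7, 14.3 and 13.9 CPM in WT and at 14.8, 16.2 and 13.2 CPM in GFAP-IL6. For both genes the groups were interleaved. The log2 fold change of Tgfb3 was -0.02 ± 0.13 (SE), with an interval of -0.30 to 0.26. The adjusted p was 0.960 for Tgfb2 and 0.945 for Tgfb3 by edgeR, and these intervals leave room for changes of about 1.28-fold in Tgfb2 and 1.19-fold in Tgfb3 upwards. In Tgfb3, 12.4% of the exon bases lie in exons of genes on the opposite strand, against 2.14% in Tgfb2, and the strand setting of the counting is not stated.

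The mixture of ligands was compared in TPM. Tgfb1 made up 21.8%, 20.4% and 18.6% of the summed ligand TPM in the WT libraries and 30.9%, 24.6% and 28.1% in the GFAP-IL6 libraries. Its share was thus higher in each GFAP-IL6 library, with means of 20.3% ± 1.63 and 27.9% ± 3.13 (SD, n = 3 each). Tgfb3 remained the largest component in all 6 libraries, at 50.6% to 58.5% in WT and 44.3% to 55.6% in GFAP-IL6. With M21 lengths the share of Tgfb1 was 9.26% to 10.996% in WT and 12.7% to 16.6% in GFAP-IL6, again without overlap.

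Ltbp1 (ENSMUSG00000001870.13, chromosome 17, 75005568 to 75392512, plus strand), which binds the latent ligand and anchors it to the extracellular matrix, was at 12.1, 10.3 and 11.4 CPM in WT and at 11.03, 10.3 and 13.1 CPM in GFAP-IL6. The groups overlapped over most of their range. The fitted change was 0.03 ± 0.14 on the log2 scale (SE), with an interval of -0.27 to 0.33, and edgeR gave an adjusted p of 0.920.

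Neither Smad of the set passed the threshold. Smad3 (ENSMUSG00000032402.10, chromosome 9, 63646767 to 63757994, minus strand), the transducer of the signal, was at 82.7, 66.7 and 75.0 CPM in WT and at 77.4, 90.2 and 89.3 CPM in GFAP-IL6. One GFAP-IL6 library lay within the WT range and the others above it. The log2 fold change of Smad3 was 0.20 ± 0.10 (SE), with an interval of -0.02 to 0.41, and edgeR gave an adjusted p of 0.283. Smad7 (ENSMUSG00000025880.9, chromosome 18, 75367529 to 75395935, plus strand), the feedback inhibitor, was at 22.2, 22.1 and 19.5 CPM in WT and at 24.0, 22.7 and 22.3 CPM in GFAP-IL6. The groups of Smad7 did not overlap, but by a narrow margin, and the fitted change was 0.12 ± 0.10 on the log2 scale (SE) with an interval of -0.10 to 0.34 and an adjusted p of 0.530. The ratio of Smad3 to Smad7 in TPM was 3.04 ± 0.389 in WT and 3.21 ± 0.380 in GFAP-IL6 (n = 3 each, with SD).

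Non-overlap of the groups occurred for 3 of the 9 members, Tgfbr2, Tgfb1 and Smad7, all higher in GFAP-IL6. Of all genes tested, 13.8% did not overlap and were higher, and 12.7% did not overlap and were lower, so that separation of 3 against 3 libraries is common in these data.

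**Figure D3:**
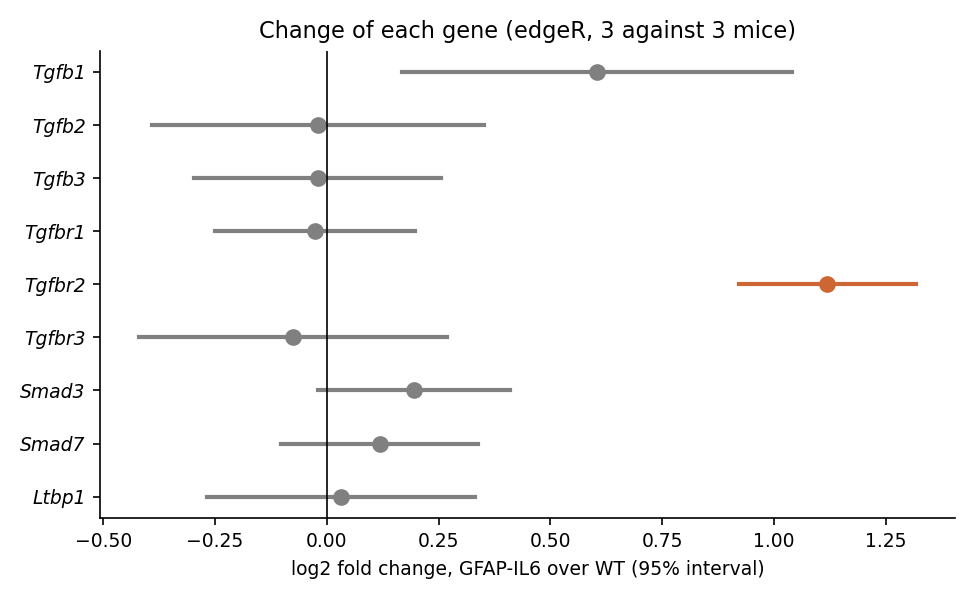
Log2 fold change of each of the 9 genes, GFAP-IL6 over WT, with its 95% interval from edgeR; orange marks an adjusted p under 0.05 and the vertical line marks no change. The interval of Tgfbr2 is 0.92 to 1.32, and the intervals of the genes other than Tgfbr2 and Tgfb1 include 0.

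Levels within a group were ordered by TPM. In WT the order was Smad3 (40.9 ± 5.55 TPM), Tgfbr1 (18.6 ± 2.07), Smad7 (13.5 ± 1.07), Tgfb3 (12.3 ± 1.57), Tgfbr2 (10.4 ± 0.369), Tgfb2 (5.79 ± 0.928), Tgfbr3 (4.89 ± 0.135), Tgfb1 (4.62 ± 0.624) and Ltbp1 (4.54 ± 0.507) (mean ± SD of TPM, n = 3 each). Neighbours whose ranges over libraries overlapped were Smad7 and Tgfb3, and each step from Tgfb2 down to Ltbp1. In GFAP-IL6 Tgfbr2 moved from the fifth to the second place, at 23.9 ± 1.13 TPM, between Smad3 at 49.0 ± 3.65 and Tgfbr1 at 19.2 ± 1.19 (SD, n = 3 each). Neighbours from Smad3 down to Tgfb1 did not overlap there, whereas Tgfb1, Tgfb2, Tgfbr3 and Ltbp1 each overlapped with the next. Gene lengths decide part of this order, and with M21 lengths Tgfb1 came last in WT, Ltbp1 came just above it, and Tgfbr2 stayed below Tgfbr1 in both groups.

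Other genes of the pathway were then counted by role. Of 85 genes in 7 lists, 81 were tested, 9 rose and 0 fell by edgeR, with a median log2 fold change of 0.11. By the same test and adjusted threshold, 2.65% of all genes tested rose and 0.209% fell. Without adjustment, 20 were higher and 7 lower with a p under 0.05, and DESeq2 called 9 higher and 1 lower. The unadjusted share of lower genes was thus near the 9.37% of all genes tested. The 20 that were higher without adjustment stand beside 11.1% of all genes by that unadjusted rule. Among genes of latency and activation, 1 of 14 tested rose, against 2.65% of all genes tested, with a median of 0.25. This was Itgb5, an integrin subunit that pairs with Itgav to bind the latent complex, at 31.3, 36.7 and 38.5 CPM in WT and 58.2, 59.6 and 75.1 CPM in GFAP-IL6. All GFAP-IL6 values were above all WT values, with a log2 fold change of 0.85 ± 0.11 (SE), and edgeR gave an adjusted p of 9.2e-04. Itgb8, the partner of Itgav known for activating TGF-beta in brain, had a log2 fold change of -0.18 and Itgav one of -0.10, neither past the threshold (adjusted p of 0.364 and 0.481).

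The list of co-receptors and extracellular inhibitors also held Acvrl1, which is a type I receptor and neither of these. In this list 2 of 6 tested genes rose, against 2.65% of all genes tested, and the median was 0.46. Both encode partners in the endothelial branch of the pathway. Eng, or endoglin, a co-receptor of endothelial cells, was at 14.2, 11.2 and 17.4 CPM in WT and at 22.9, 23.5 and 25.3 CPM in GFAP-IL6, with a log2 fold change of 0.75 ± 0.15 (SE), and edgeR gave an adjusted p of 0.0138. Acvrl1, or ALK1, an endothelial type I receptor, was at 10.02, 9.42 and 9.92 CPM in WT and at 16.1, 13.3 and 17.8 CPM in GFAP-IL6, with a log2 fold change of 0.69 ± 0.13 (SE) and an adjusted p of 0.0126. Neither gene overlapped between groups, but both calls depended on single libraries. The adjusted p of Eng was 0.0541 without GFAP-IL6 replicate 2 and 0.116 without GFAP-IL6 replicate 3, and that of Acvrl1 was 0.0691 without GFAP-IL6 replicate 1 and 0.103 without GFAP-IL6 replicate 3.

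None of the 6 other Smads and none of the 13 intracellular regulators passed the adjusted threshold of edgeR, and without adjustment 1 Smad was higher and 3 regulators were lower with a p under 0.05, against 11.1% higher and 9.37% lower over all genes tested. The Smad with the smallest p was Smad5, a transducer of BMP signals, with a log2 fold change of 0.25 ± 0.09 (SE) and an adjusted p of 0.158. Smad2 and Smad4, the partners of Smad3, had values of 0.01 and 0.04. Among regulators, Pmepa1, a target and inhibitor of TGF-beta signalling, was at 61.1, 68.0 and 57.9 CPM in WT and at 52.3, 45.2 and 47.0 CPM in GFAP-IL6, each library below the WT range. The change came to -0.37 ± 0.09 on the log2 scale (SE), and the adjusted p was 0.0531 by edgeR and 0.0385 by DESeq2.

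Of the 14 target genes tested, 2 rose and 0 fell, against 2.65% and 0.209% of all genes tested. The median log2 fold change of the 14 was 0.15. Fn1, which encodes the matrix protein fibronectin, was at 43.3, 38.3 and 38.5 CPM in WT and at 73.4, 77.6 and 93.3 CPM in GFAP-IL6, with a log2 fold change of 1.03 ± 0.10 (SE), and edgeR gave an adjusted p of 8.7e-05. Junb, an AP-1 factor induced by many stimuli besides TGF-beta, was at 28.3, 14.3 and 19.1 CPM in WT and at 46.7, 42.7 and 34.9 CPM in GFAP-IL6, with a log2 fold change of 1.03 ± 0.19 (SE) and an adjusted p of 0.0108. The groups did not overlap in either gene. The call of Junb was lost without GFAP-IL6 replicate 1 (adjusted p of 0.0678) and without GFAP-IL6 replicate 2 (0.0521). Other targets had log2 fold changes on both sides of 0 without passing the threshold, such as Id3 at 0.55 and Id1 at 0.50 against Ctgf, a classical target, at -0.45.

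Of 18 tested genes in the activin and BMP branch, 0 rose and 0 fell by edgeR, with a median of -0.03, and without adjustment 1 was higher and 2 were lower with a p under 0.05, near or below the shares over all genes. The smallest p was that of Gdf10, a ligand of this family, at 4.79, 5.43 and 4.77 CPM in WT and 3.32, 3.57 and 2.57 CPM in GFAP-IL6, with a log2 fold change of -0.67 ± 0.20 (SE) and an adjusted p of 0.107. DESeq2 also called none of these genes. The type I receptor Acvrl1 was not in this list, as it was counted with the co-receptors.

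**Figure D4:**
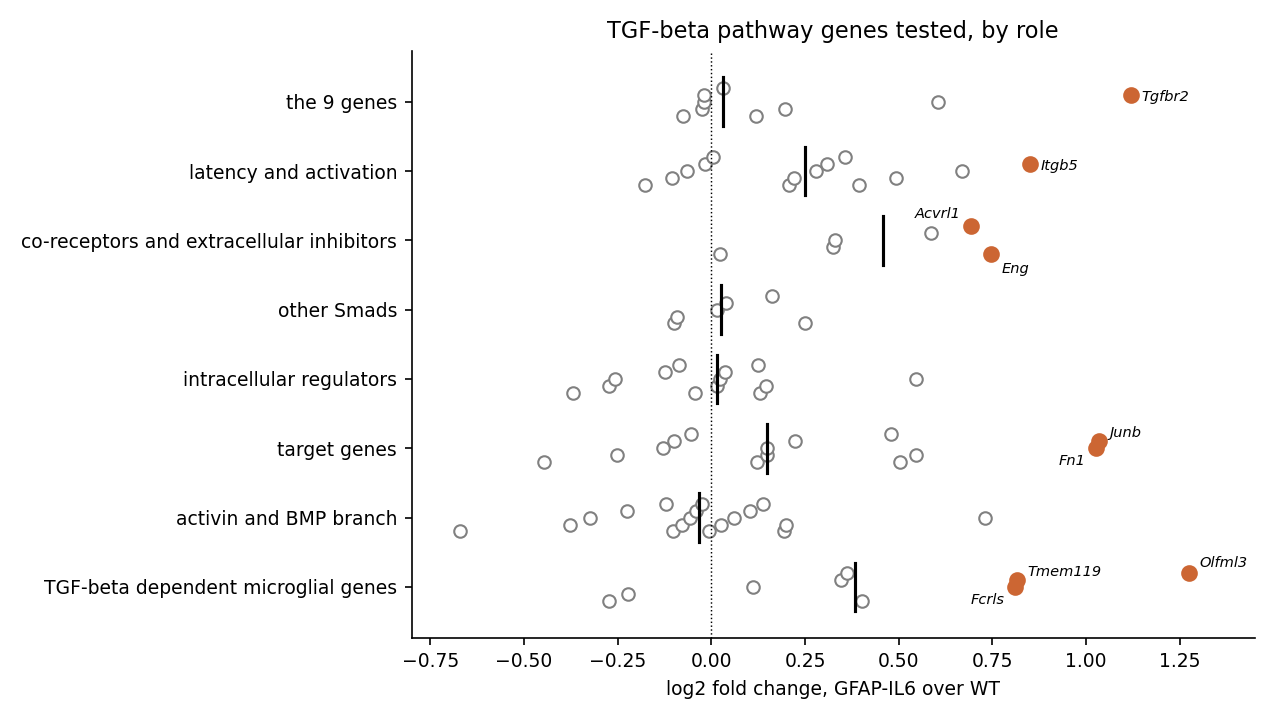
Log2 fold change, GFAP-IL6 over WT, of tested genes of the pathway by role; filled points have an adjusted p under 0.05 by edgeR and are named, open points do not, and the black bar is the median of all tested genes of the list. Of the genes shown, Tgfbr2 and 8 others passed the threshold, all higher, and the medians run from -0.03 in the activin and BMP branch to 0.46 in co-receptors and extracellular inhibitors. The list with the median of 0.46 includes the type I receptor Acvrl1.

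Genes of microglia that are known to need TGF-beta signalling were counted as a further list. Of 10 tested, 4 rose and 0 fell, against 2.65% and 0.209% of all genes tested. The median log2 fold change of the 10 was 0.38. Olfml3, a secreted microglial protein, rose most, from 15.6 ± 1.98 to 37.9 ± 1.55 CPM (SD, n = 3 each), with a log2 fold change of 1.27 ± 0.11 (SE), and edgeR gave an adjusted p of 2.1e-05. Tmem119 and Fcrls, surface proteins of resident microglia, had log2 fold changes of 0.81 and 0.81, with adjusted p of 0.00142 and 0.00564. The adjusted p of Fcrls was 0.0615 without GFAP-IL6 replicate 3. P2ry12 and Gpr34, G protein-coupled receptors of the same cells, lay at -0.27 and -0.22 and Sall1, a nuclear factor of microglia, at 0.34, with adjusted p of 0.291, 0.540 and 0.0948. The list thus held members that rose beside members on either side of 0 that did not pass the test.

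Tgfbr2 is expressed in microglia and endothelial cells, and markers of both cell types were higher in the same libraries. In bulk tissue, a change in the number of cells of a type and a change in RNA per cell cannot be told apart. Of 8 microglial markers, 7 rose, against 2.65% of all genes tested. The sum of the 8 markers was 380 to 469 CPM in WT and 768 to 881 CPM in GFAP-IL6. The marker that did not rise was P2ry12, with a log2 fold change of -0.27. Tmem119 and P2ry12 are among the 8 markers that also stand in the list of genes that need TGF-beta signalling. Of 8 endothelial markers, 4 rose, against the same 2.65% of all genes. Their sum was 136 to 157 CPM in WT and 218 to 262 CPM in GFAP-IL6. The mean sum was 1.87-fold higher for microglia and 1.64-fold higher for endothelial cells, against 2.17-fold for Tgfbr2.

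Per 100 CPM of microglial markers, Tgfbr2 amounted to 4.58, 3.83 and 4.21 CPM in WT and 5.06, 4.88 and 4.66 CPM in GFAP-IL6. Per 100 CPM of endothelial markers it amounted to 11.96, 13.2 and 11.9 CPM in WT and 17.8, 15.8 and 15.7 CPM in GFAP-IL6. On both scales the groups were separate, by a small margin for microglia, and the part of cell number in the rise of Tgfbr2 was not tested. Summed markers of pericytes and smooth muscle were 145 to 177 CPM in WT and 196 to 231 CPM in GFAP-IL6, with 1 of 7 genes called. Most of that sum was Rgs5, the gene called, at 102 to 116 CPM in WT and 135 to 162 CPM in GFAP-IL6. Those of fibroblasts and meninges overlapped, at 125 to 156 and 122 to 180 CPM with 0 of 7 called. Of 7 astrocyte markers only Gfap rose. The counts called in these lists stand beside the 2.65% of all genes tested that rose. Infiltrating leukocytes were near the limit of detection, as 0 of their 8 markers passed the low-count filter, Cd3d had 0 counts in every library and no marker had more than 14.

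**Figure D5:**
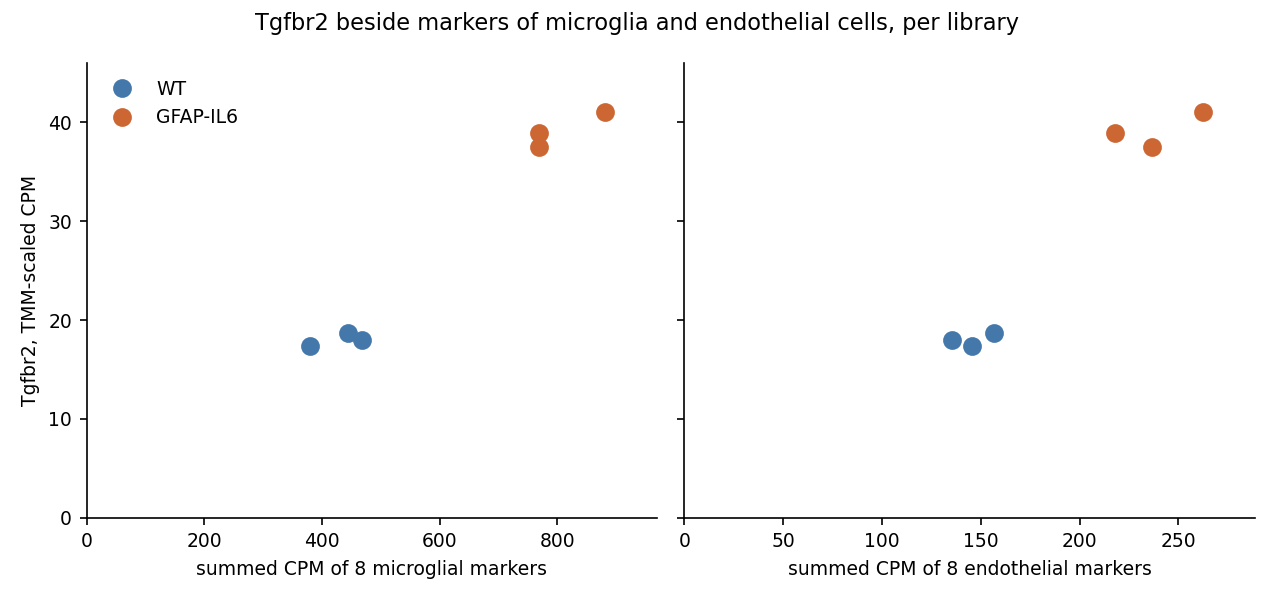
Tgfbr2 in TMM-scaled CPM against the summed CPM of 8 microglial (left) and 8 endothelial (right) markers, one point per library, axes from 0. The GFAP-IL6 libraries lie at 37.5 to 41.1 CPM of Tgfbr2 with 768 to 881 CPM of microglial and 218 to 262 CPM of endothelial markers, and the WT libraries at 17.4 to 18.6 CPM with 380 to 469 and 136 to 157 CPM.

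The genes whose levels followed Tgfbr2 most closely over the 6 libraries were Itgam, Cd300lf and Naip2, with Pearson coefficients of log2(CPM + 1) of 0.9986, 0.9985 and 0.9985. Itgam encodes the integrin CD11b of microglia and other myeloid cells, and rose from 24.2 to 27.8 CPM in WT to 96.8 to 117 CPM in GFAP-IL6. Cd300lf, a myeloid receptor, was counted 0, 1 and 1 times in the WT libraries and 19, 12 and 19 times in the GFAP-IL6 libraries, and for Naip2, an inflammasome sensor, the counts were 9 to 17 and 30 to 47. The coefficient was over 0.95 in 304 genes, or 1.98% of those tested. It rests on the step between the 2 groups of 3 libraries and is given as a description.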

How the data were processed

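Expression was measured in 6 TruSeq mRNA libraries of mouse frontal cortex, 3 WT and 3 GFAP-IL6, grouped by their titles. The authors deposited raw counts per gene with a gene length, and replicates were not pooled. According to the methods, reads were aligned with STAR 2.4 to mm10 and counted over GENCODE vM6 genes with featureCounts; the submitters' processing notes name hg19, a human build, whereas the row identifiers are mouse genes. The strand setting is not given in the sources used here.

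Counts were tested with edgeR 4.0.16 in R 4.3.3 (TMM, filterByExpr, quasi-likelihood F-test, group only), with Benjamini-Hochberg adjustment over 15341 genes. SE and intervals follow from the F statistic. TPM used the deposited lengths. Alternatives were DESeq2 1.42.0, limma-voom (limma 3.58.1), other scalings and filters, thinning, a replicate block and omission of each library. TPM with M21 lengths was added after seeing the data.

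Totals of 7559524 to 16877001 counts limit precision, and duplicate reads could not be removed. The members and gene lists were chosen with earlier results of these data known. Named were all 9 members, other pathway genes with an adjusted p under 0.05, the gene of smallest p in each list without one, the 3 genes most like each called member, and Il6 and Gfap as a check of the labels. Further genes were chosen after their values were seen. No pair of libraries agreed within sampling noise (chi-square per degree of freedom of 2.23 to 20.1). Single genes that enter the counts of a list are in part not reported here by name.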

Additional observations from a re-analysis of the deposited data

How the results depend on the processing

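Tgfbr2 was the 1 member called under each of the 15 alternatives, and no other member was called under any. The sign of 5 members near 0 was not fixed. With library totals only, Tgfb2 and Tgfb3 had log2 fold changes of 0.0038 and 0.0032, and with thinning to the smallest total Tgfbr1 and Ltbp1 had 0.0484 and -0.0037. Across the 6 fits without one library each, the log2 fold change of Tgfb2 ranged from -0.148 to 0.092, that of Tgfb3 from -0.0899 to 0.062, that of Tgfbr1 from -0.119 to 0.0483, that of Tgfbr3 from -0.271 to 0.0328 and that of Ltbp1 from -0.0671 to 0.0954. Of the other pathway genes, 14 rose without the low-count filter, including the 9 given above, and 6 (without GFAP-IL6 replicate 3) to 13 (without WT replicate 2) when one library was left out. Pmepa1 was the 1 gene that fell with DESeq2, without the filter and with the replicate block. When one library was left out, 0 to 3 fell, the most without WT replicate 1 (Pmepa1, Fkbp1a and P2ry12). Of all genes tested, 439 were called, against 1154 without the filter and 187 (without GFAP-IL6 replicate 3) to 1061 (without WT replicate 1) when one library was left out, with 282 without GFAP-IL6 replicate 2. The cause was not tested.

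The replicate block gave 750 calls over the whole table, 438 of them shared with the fit without it, and again 1 member. The numbers were not taken to pair the mice. Deviations of same-numbered libraries correlated at 0.123, 0.019 and 0.050. WT replicates 1 and 3 correlated best with the library of the same number, and WT replicate 2 with GFAP-IL6 replicate 3, at 0.051. Values this small do not settle whether the mice were paired. At this depth and number of mice the 95% intervals do not exclude a rise of up to 1.28-fold in Tgfb2, 1.26-fold in Ltbp1 or 1.33-fold in Smad3.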
